A study of Mus musculus with 77 samples.

Results

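The interferon-stimulated genes examined here are 39 mouse genes, taken by symbol from the 46078 genes of a count table of pancreatic ductal organoids, and all 39 have a row in it. They were followed through 7 groups of cells and through the single pools of 50 sorted cells that make up each group. The organoids were three-dimensional cultures of adult pancreatic duct cells of C57BL/6 mice. All were transduced with a two-vector lentiviral Tet-on system, in which an inducible promoter drove GFP only, GFP with wild-type Neurogenin3 (WT Ngn3), or GFP with 6S-A Ngn3, a form whose phosphorylated serines were replaced by alanine. The 3 groups of 2 days after induction were GFP+ cells that carried GFP only or either form of Ngn3, each with 18 libraries from 3 biological replicates. The groups of 8 days were WT Ngn3 (5 libraries) and 6S-A Ngn3 (6), and 2 no-color groups (6 each) of the WT and 6S-A organoids. All replicates were of passage 2 except replicate 3 of each 8-day group, which was of passage 5. The organoids of all groups were exposed to lentivirus, and the labels do not say whether a no-color cell carried a vector. The control therefore changes between the times, from transduced GFP+ cells at 2 days to cells without color at 8 days.

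Interferons are secreted signaling proteins of the immune response. Cells release type I and type III interferons when they sense foreign nucleic acid, and activated lymphocytes release type II interferon. Type I interferons bind the receptor Ifnar1/Ifnar2, type II interferon binds Ifngr1/Ifngr2 and type III interferons bind Ifnlr1/Il10rb, and the Janus kinases then activate transcription factors that switch on a large set of genes. A typical promoter of such a gene carries an interferon-stimulated response element (ISRE), which binds factors of the Irf family, and genes that answer type II interferon often carry a gamma-activated site (GAS). The products include sensors of viral RNA, antiviral enzymes, GTPases, the ubiquitin-like protein Isg15 and its partners, and chemokines.

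RefSeq promoter windows (GRCm38.p6, 250 bases before to 50 bases after the gene start) were at hand for 28 of the 39 members. The core of the ISRE was searched as GAAANNGAAA on both strands (TTTCNNTTTC on the other), and it was found in 16 of the 28 members and in 3.99% of the 27025 genes with a window. The GAS core, searched as TTCNNNGAA, was found in 8 of the 28 members and in 9.55% of genes. CAGATG, which reads CATCTG on the other strand and is one of the E-box sequences to which basic helix-loop-helix factors such as Ngn3 bind, was found in 5 of the 28 members and in 19.2% of genes. The 4 promoters below are shown because they set 2 members that rose at 2 days, Rsad2 and Cxcl10, beside 2 widely used members that did not pass, Isg15 and Ifit1. They are printed at unequal lengths, 220, 250, 100 and 120 bases in that order. The full windows of Isg15 and Ifit1 held no CAGATG either. Capitals mark ISRE cores and this E-box on either strand, and each sequence runs 5′ to 3′ on the gene's strand and ends at the base before the RefSeq gene start, which for Ifit1 lies inside the gene as GENCODE annotates it (from 34640871).
Rsad2 (chr12:26456453-26456672, minus strand): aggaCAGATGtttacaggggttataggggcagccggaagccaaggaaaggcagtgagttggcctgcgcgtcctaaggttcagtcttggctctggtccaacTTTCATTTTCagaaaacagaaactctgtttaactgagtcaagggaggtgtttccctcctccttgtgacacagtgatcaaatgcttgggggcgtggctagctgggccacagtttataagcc
Cxcl10 (chr5:92348890-92349139, minus strand): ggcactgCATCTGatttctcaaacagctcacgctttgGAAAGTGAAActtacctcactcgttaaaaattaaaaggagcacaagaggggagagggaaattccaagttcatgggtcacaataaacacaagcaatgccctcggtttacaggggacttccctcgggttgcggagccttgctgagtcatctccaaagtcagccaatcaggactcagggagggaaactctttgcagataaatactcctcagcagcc
Isg15 (chr4:156200819-156200918, minus strand): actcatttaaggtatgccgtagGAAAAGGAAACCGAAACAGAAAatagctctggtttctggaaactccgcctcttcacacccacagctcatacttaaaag
Ifit1 (chr19:34640769-34640888, plus strand): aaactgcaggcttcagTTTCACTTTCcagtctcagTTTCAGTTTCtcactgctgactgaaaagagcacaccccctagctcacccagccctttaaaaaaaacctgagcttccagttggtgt
Rsad2 holds 1 ISRE core, 111 to 120 bases before its start, and CAGATG 211 to 216 bases before it. Isg15 holds 3 ISRE cores that overlap one another, and Ifit1 holds 2. Of the 7 members with a window that rose at 2 days under either protein, 4 held an ISRE core (Rsad2, Cxcl10, Ifih1 and Ifit3), and of the other 21 members with a window, 12 did. The E-box was in 2 of those 7 (Rsad2 and Cxcl10) and in 3 of the other 21 (Gbp3, Gbp7 and Trim25), so the 4 stretches shown do not stand for all members in this. A match of letters is a description of these windows, not a site that was shown to be bound.

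The members covered a wide range of levels. Levels are CPM, read counts scaled to the library's total and by TMM, from the technical repeats of a biological replicate summed into 1 value, and error is the SD over 3 biological replicates. Levels of different genes are compared only per kilobase of exon. On that scale (mean CPM per kilobase over 21 replicates), the highest member of each role was Bst2 among antiviral effectors at 68.3, Ifi27 among other induced proteins at 55.5, Irf1 among transcription factors at 34.9, Trim25 among ubiquitin-like and ADP-ribose modifiers at 10.2, Irgm1 among GTPases at 8.09 and Ifih1 among RNA sensors at 3.25. Bst2 (tetherin) holds budding virus at the cell surface, Trim25 is a ubiquitin ligase of the RNA-sensing pathway, and Irgm1 is an immunity-related GTPase. Mx1, a GTPase that blocks influenza virus, was the lowest at 0.00949 CPM per kilobase. Rsad2 stood at 4.50 CPM per kilobase. Mx1 was not tested at either time, nor Ifit3 at 8 days, because they were detected in too few libraries, so 38 members were tested at 2 days and 37 at 8 days. Replicate 3 of the no-color cells of WT organoids stood apart, with 2397470 reads and the lowest TMM factor, 0.721, while the replicates of 2 days held 17757303 to 26627347 reads.

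**Figure D1:**
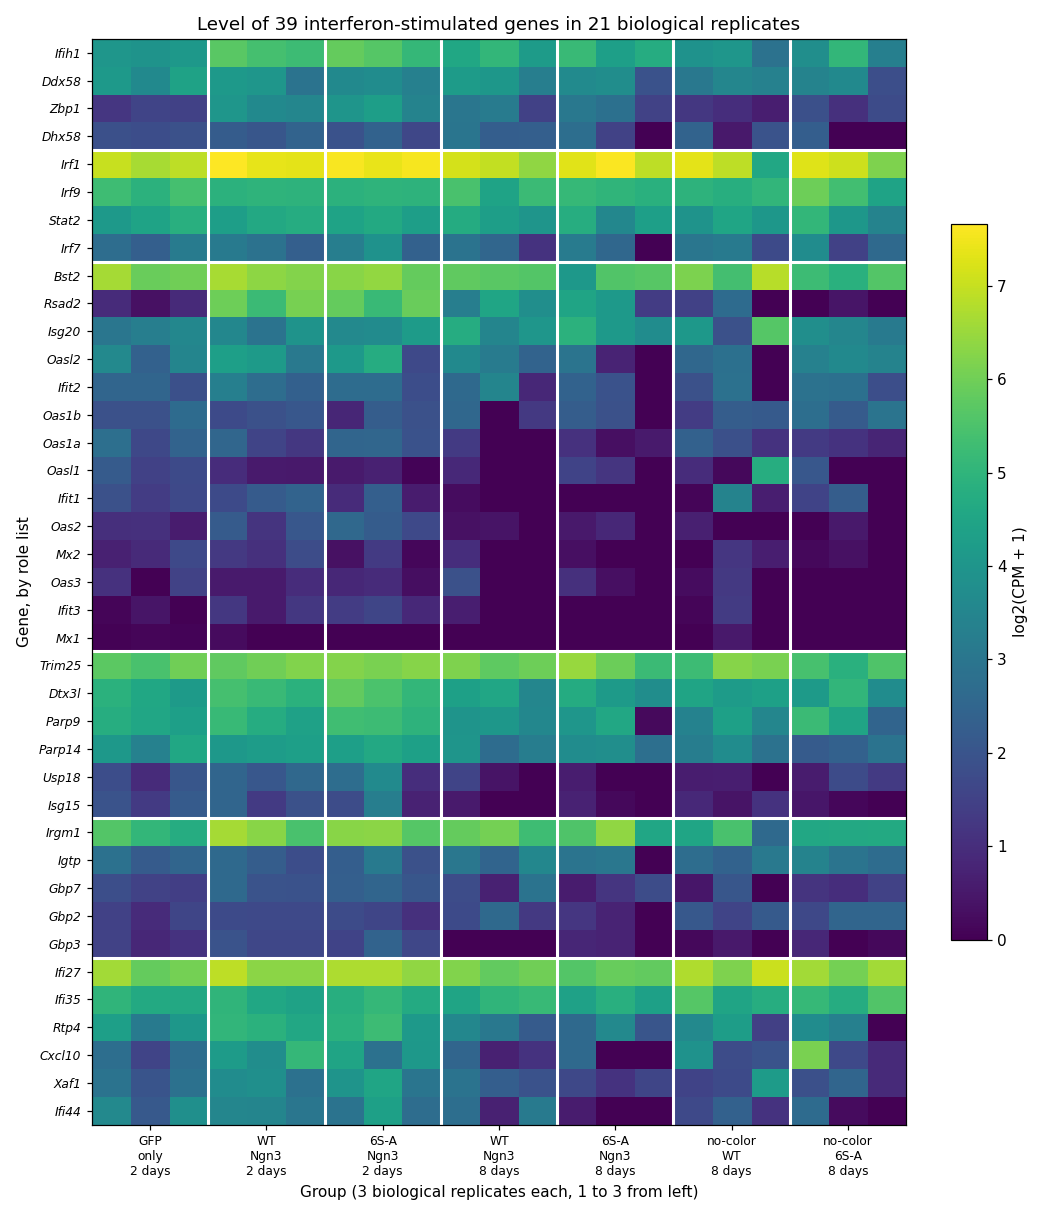
Level of each of the 39 members (rows, by role list and then by mean level) in each of the 21 biological replicates (columns, 3 per group), as log2(CPM + 1) from dark (0) to yellow. The row of Rsad2 is dark in GFP only, where its replicates lie between 0.268 and 0.907 CPM, and green in both Ngn3 groups of 2 days.

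At 2 days, a small subset of the members was higher in cells with Ngn3 than in cells with GFP only. Rsad2, which encodes the antiviral enzyme viperin, stood at 0.907, 0.268 and 0.875 CPM in the 3 replicates of GFP only. It reached 62.0, 36.1 and 67.6 CPM with WT Ngn3 and 56.3, 35.5 and 59.7 CPM with 6S-A Ngn3. GFP only did not overlap with either protein in any replicate, nor in any pool. In the distinct pools, the highest of GFP only held 3.33 CPM, while the lowest held 28.8 CPM with WT Ngn3 and 9.11 CPM with 6S-A Ngn3. The rise was 6.34 ± 0.41 (SE) on the log2 scale under WT Ngn3 and 6.20 ± 0.41 under 6S-A Ngn3 (edgeR quasi-likelihood test, adjusted p = 1.98e-06 and 1.28e-06), or 81.2-fold and 73.7-fold. Rsad2 lies on chromosome 12 from 26442746 to 26456452 (GRCm38) and overlaps no other annotated gene. In these pools, a lower share of cells with a transcript and less transcript per cell cannot be told apart.

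With WT Ngn3, 7 of the 38 tested members rose and 0 fell, and 13 had an unadjusted p under 0.05. Of all 23844 genes tested, 11.8% were called in either direction and 6.56% were called higher. With 6S-A Ngn3, 9 members rose and 1 fell, and 17 had an unadjusted p under 0.05, against 18.1% of all genes called in either direction and 9.43% called higher. The median log2 fold change of the tested members was 0.46 under WT Ngn3 and 0.50 under 6S-A Ngn3, while that of all tested genes was 0.02 in both comparisons. The 2 comparisons share the GFP only samples. Summed over the 39 members, the level was 623 ± 108 CPM in GFP only, 916 ± 119 CPM with WT Ngn3 and 948 ± 116 CPM with 6S-A Ngn3.

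**Figure D2:**
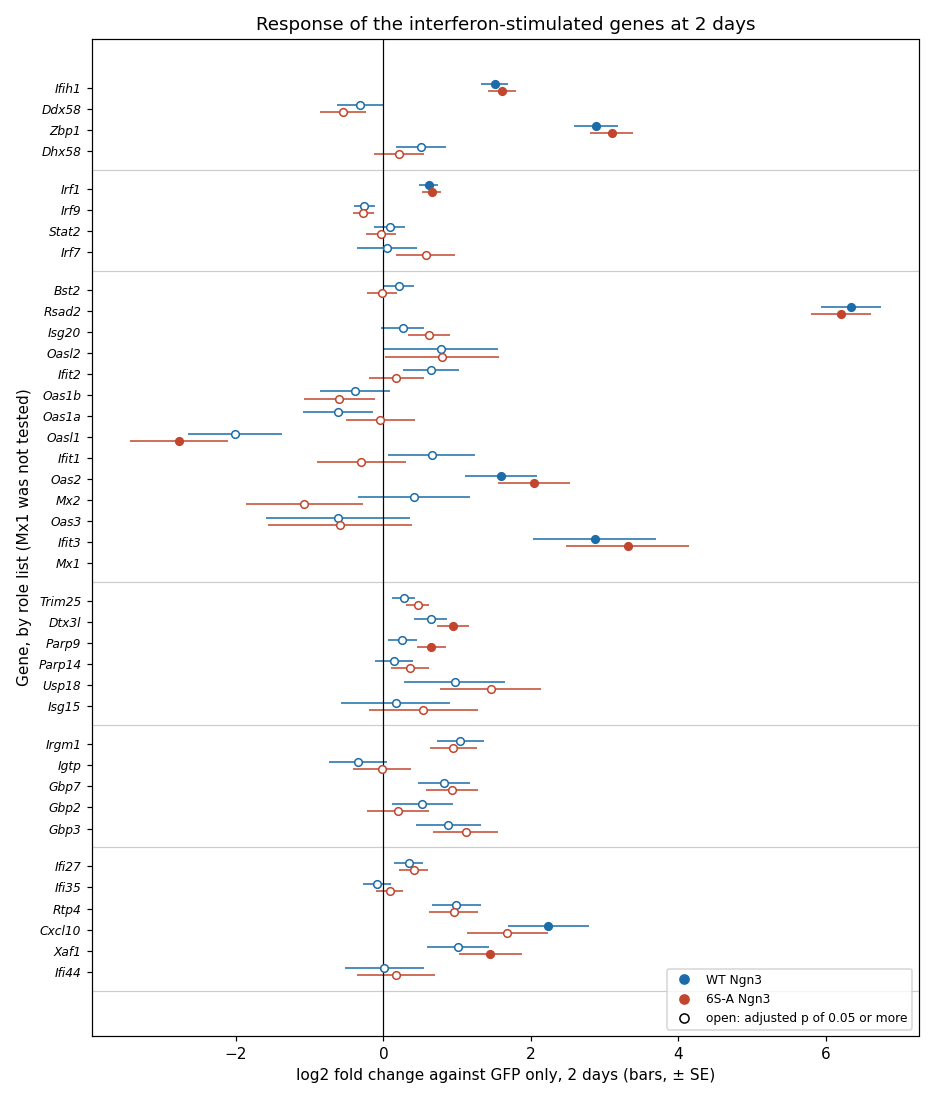
Log2 fold change against GFP only at 2 days (horizontal axis, points with bars of ± SE) for the 38 tested members, by role, with WT Ngn3 in blue and 6S-A Ngn3 in red. Filled points passed an adjusted p of 0.05, and Rsad2 lies far to the right of the other members at 6.34 and 6.20.

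Among the 4 RNA sensors, Ifih1 and Zbp1 rose and Ddx58 and Dhx58 did not pass. Ifih1 encodes MDA5, a cytoplasmic sensor of long double-stranded RNA. Its replicates stood at 15.2, 14.3 and 16.1 CPM in GFP only, at 51.0, 41.2 and 37.1 CPM with WT Ngn3 and at 57.0, 49.4 and 33.7 CPM with 6S-A Ngn3, with no overlap between GFP only and either protein. The rise was 1.51 ± 0.19 and 1.61 ± 0.19 on the log2 scale (edgeR, adjusted p = 0.000118 and 3.66e-05). Zbp1, a sensor of left-handed nucleic acid, stood at 1.31, 1.95 and 1.80 CPM in GFP only, at 15.3, 11.5 and 10.4 CPM with WT Ngn3 and at 14.9, 18.8 and 9.83 CPM with 6S-A Ngn3. Its rise was 2.88 ± 0.30 and 3.10 ± 0.30 (edgeR, adjusted p = 2.18e-05 and 6.61e-06). Ddx58, which encodes the sensor RIG-I, had a log2 fold change of -0.32 ± 0.31 with WT Ngn3 (edgeR, adjusted p = 0.643). Leaving out any 1 biological replicate of the 2-day groups kept the calls of Rsad2, Ifih1, Zbp1 and Irf1 under both proteins.

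Of the 4 transcription factors, Irf1 alone passed. Irf1, itself both a target and an activator of the response, stood at 116 ± 14.2 CPM in GFP only, 176 ± 22.1 CPM with WT Ngn3 and 183 ± 11.8 CPM with 6S-A Ngn3. Its highest replicate of GFP only, 128 CPM, was below its lowest replicate of either protein, 162 CPM. The rise was 0.61 ± 0.13 and 0.65 ± 0.13 on the log2 scale (edgeR, adjusted p = 0.00563 and 0.00231). Stat2 and Irf9, which act downstream of the receptors, and Irf7, the amplifier of type I interferon, did not pass under either protein.

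Of the 13 tested antiviral effectors, Rsad2, Ifit3 and Oas2 rose under both proteins. Ifit3, which aids Ifit1 in binding viral RNA, was at the edge of detection and has a near copy, Ifit3b, to which reads could be assigned. It had 2, 9 and 0 reads in the replicates of GFP only, 34, 9 and 28 reads with WT Ngn3 and 34, 39 and 19 reads with 6S-A Ngn3. Its log2 fold change was 2.87 ± 0.84 and 3.31 ± 0.84 (edgeR, adjusted p = 0.0387 and 0.0125). Oas2, an oligoadenylate synthetase that activates RNA decay, stood at 1.05, 1.07 and 0.507 CPM in GFP only, at 3.56, 1.20 and 3.19 CPM with WT Ngn3 and at 5.08, 3.69 and 2.26 CPM with 6S-A Ngn3. Its log2 fold change was 1.59 ± 0.49 and 2.05 ± 0.49 (edgeR, adjusted p = 0.0482 and 0.00873). The WT calls of both genes lay close to the threshold and were lost in several fits without 1 replicate. In those fits the log2 fold change was 2.33 to 2.87 for Ifit3 and 1.31 to 1.74 for Oas2. That of Ifit3 was lost without replicate 1 or 3 of GFP only, 1 or 3 of WT Ngn3, or 1 or 2 of 6S-A Ngn3 (adjusted p between 0.0538 and 0.128). That of Oas2 was lost without any replicate of GFP only, replicate 1 or 3 of WT Ngn3, or 1 or 2 of 6S-A Ngn3 (adjusted p between 0.0543 and 0.162), and also where near-identical technical repeats were counted once. The 6S-A call of Ifit3 was lost without replicate 1 of GFP only (adjusted p = 0.052).

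Oasl1, an oligoadenylate synthetase-like protein known to restrain translation of Irf7, was the 1 member that fell. It stood at 3.56, 1.80 and 2.30 CPM in GFP only, at 0.948, 0.470 and 0.442 CPM with WT Ngn3 and at 0.457, 0.624 and 0.0443 CPM with 6S-A Ngn3, so all replicates of both proteins lay below GFP only. The log2 fold change was -2.78 ± 0.67 with 6S-A Ngn3 (edgeR, adjusted p = 0.0093) and -2.01 ± 0.63 with WT Ngn3 (adjusted p = 0.0561, and 0.0207 with the replicate number as a block). Leaving out replicate 3 of 6S-A Ngn3 also brought the WT value past the threshold (adjusted p = 0.015). Oasl1 overlaps the annotated Gm13822, and whether the counting used strand is not given in the sources used here. Ifit1 and Mx1, both common readouts of an interferon response, gave no call. Ifit1 stood at 2.18 ± 0.581 CPM in GFP only, 3.44 ± 1.05 CPM with WT Ngn3 and 1.80 ± 1.92 CPM with 6S-A Ngn3. Without replicate 2 of 6S-A Ngn3, Ifit1 was called lower there (-1.63, adjusted p = 0.0449), as was Mx2 (-2.75, adjusted p = 0.038). Mx1 had at most 4 reads in any replicate of the 7 groups.

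Among the 6 ubiquitin-like and ADP-ribose modifiers, none passed with WT Ngn3, and Dtx3l and Parp9 rose with 6S-A Ngn3. These encode partner proteins, a ubiquitin ligase and an ADP-ribosyltransferase, from neighboring genes that overlap in the annotation. Reads that the counting could not assign to a single gene were left out. Whether strand was used to assign reads in the overlap is not given in the sources used here. Dtx3l stood at 28.95, 22.4 and 17.1 CPM in GFP only and at 56.0, 44.0 and 32.4 CPM with 6S-A Ngn3, and the groups did not overlap. Its log2 fold change was 0.95 ± 0.22 with 6S-A Ngn3 (edgeR, adjusted p = 0.00841) and 0.64 ± 0.22 with WT Ngn3 (adjusted p = 0.0856). With the replicate block, the WT value passed at 0.66 ± 0.10 (adjusted p = 0.000457), as it did without replicate 1 of GFP only (adjusted p = 0.0407). Parp9 stood at 26.5, 21.98 and 19.2 CPM in GFP only and at 38.8, 37.5 and 30.2 CPM with 6S-A Ngn3. It rose by 0.65 ± 0.20 with 6S-A Ngn3 (adjusted p = 0.0352), a call lost without replicate 1 or 2 of 6S-A Ngn3 or 2 or 3 of GFP only (adjusted p between 0.1 and 0.139). Isg15, a ubiquitin-like protein that is joined to other proteins, stood at 2.66 ± 1.11 CPM in GFP only, 2.97 ± 1.63 CPM with WT Ngn3 and 3.94 ± 4.24 CPM with 6S-A Ngn3.

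None of the 5 GTPases passed without the block, and of the 6 other induced proteins Cxcl10 rose with WT Ngn3 and Xaf1 with 6S-A Ngn3. Cxcl10, a chemokine that attracts T cells, stood at 5.84, 1.99 and 5.71 CPM in GFP only, at 17.6, 12.6 and 33.5 CPM with WT Ngn3 and at 21.2, 6.29 and 16.0 CPM with 6S-A Ngn3. The groups did not overlap, and the log2 fold change was 2.24 ± 0.55 with WT Ngn3 (edgeR, adjusted p = 0.0263) and 1.68 ± 0.55 with 6S-A Ngn3 (adjusted p = 0.0623, and 0.000198 with the block). The WT call was lost without any replicate of GFP only or without replicate 1 or 3 of WT Ngn3 (adjusted p between 0.052 and 0.072). The 6S-A value passed without replicate 2 of 6S-A Ngn3 (adjusted p = 0.0143) or replicate 3 of WT Ngn3 (0.0352). Xaf1, an inhibitor of the apoptosis inhibitor XIAP, stood at 6.49, 2.98 and 6.22 CPM in GFP only and at 14.6, 21.9 and 6.82 CPM with 6S-A Ngn3. It had a log2 fold change of 1.45 ± 0.43 with 6S-A Ngn3 (adjusted p = 0.0334, and 0.0644 with the block). That call was lost without replicate 1 or 2 of 6S-A Ngn3 or any replicate of GFP only (adjusted p between 0.0568 and 0.139). Irgm1 stood at 48.3, 32.8 and 25.7 CPM in GFP only, 98.3, 78.0 and 43.2 CPM with WT Ngn3 and 78.4, 79.5 and 49.0 CPM with 6S-A Ngn3. It was higher than GFP only in all 3 pairs of same-numbered replicates under both proteins, though the groups overlapped with WT Ngn3. Its adjusted p was 0.0635 and 0.0681 without the block, and with the block it rose by 1.01 ± 0.12 and 0.96 ± 0.12 (adjusted p = 3.33e-05 and 3.42e-05). It also passed under both proteins without replicate 1 of GFP only, replicate 3 of WT Ngn3 or replicate 3 of 6S-A Ngn3 (adjusted p between 0.00678 and 0.0472). With the block, 4 further members rose with 6S-A Ngn3, namely Trim25 by 0.48 ± 0.11, Isg20 by 0.60 ± 0.20, Gbp7 by 0.95 ± 0.31 and Ifi27 by 0.44 ± 0.12 (adjusted p between 0.00462 and 0.0439). The block brought the calls to 10 under WT Ngn3 and 15 under 6S-A Ngn3, while 18.0% and 24.8% of all genes were then called. Cxcl10 overlaps the annotated Art3, Irf1 overlaps Gm17334 and Oas2 overlaps Gm43068, so their reads share the uncertainty over strand.

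WT and 6S-A Ngn3 did not differ past the threshold in any member at 2 days. In the direct comparison, 0 of 38 members were called by edgeR and 0 by DESeq2, 0 had an unadjusted p under 0.05, and 0.0126% of all genes were called. The differences were -0.14 ± 0.29 on the log2 scale for Rsad2, 0.21 ± 0.26 for Zbp1, 0.11 ± 0.18 for Ifih1 and 0.04 ± 0.13 for Irf1, 6S-A minus WT. For Parp9 the difference was 0.39 ± 0.20, and for Cxcl10 it was -0.56 ± 0.52. Neurog3 itself, which includes reads from the transgene, stood at 0.0523 CPM in GFP only, 133 CPM with WT Ngn3 and 138 CPM with 6S-A Ngn3.

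**Figure D3:**
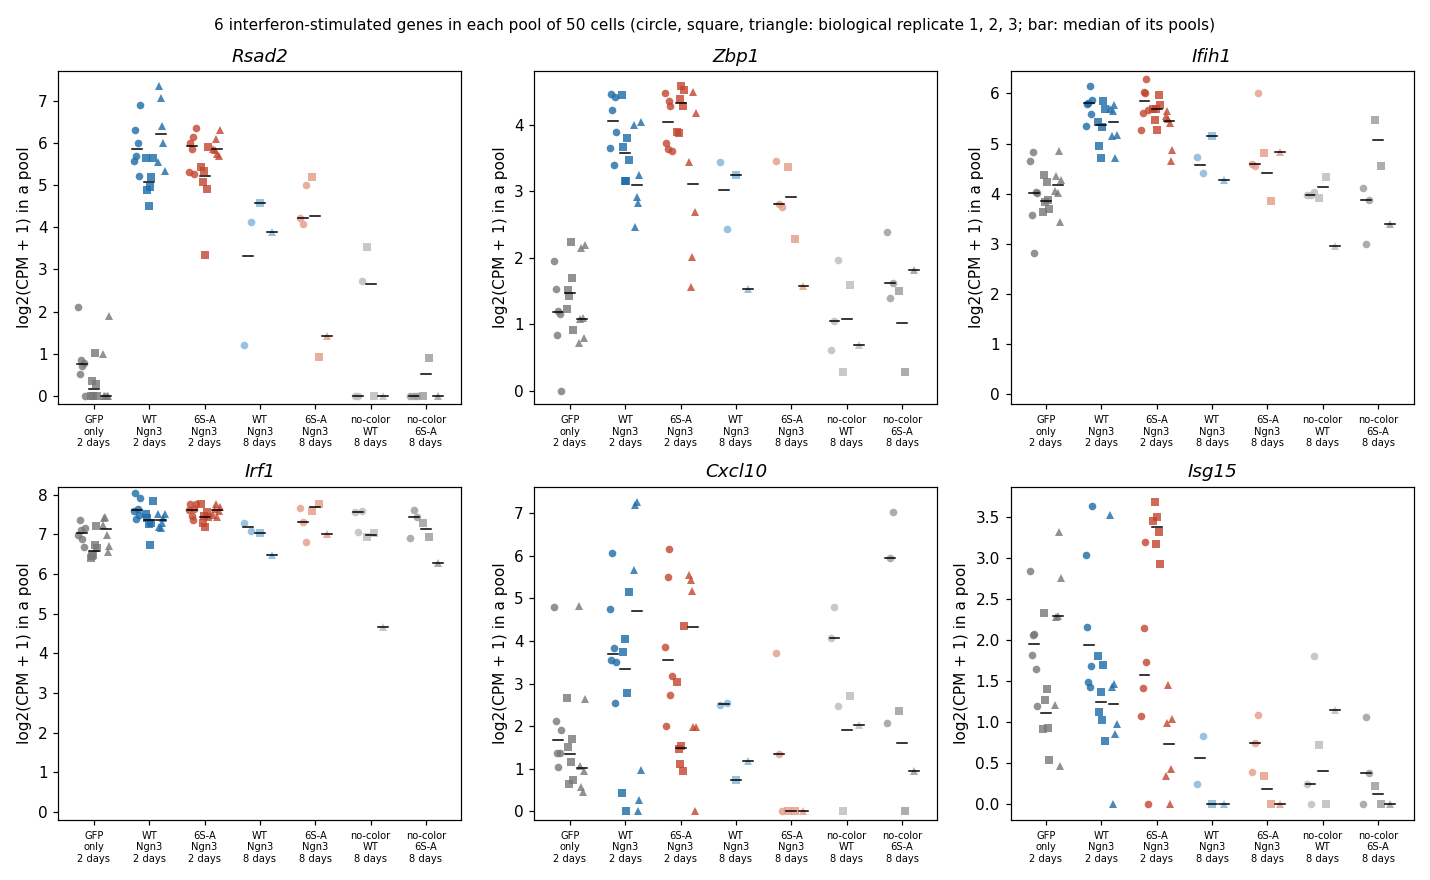
Level in each of the 76 retained pools of 50 cells (points, vertical axis log2(CPM + 1)) for Rsad2, Zbp1, Ifih1, Irf1, Cxcl10 and Isg15, by group and biological replicate (circle, square, triangle), with a bar at the median of a replicate's pools. In all pools of 2 days Rsad2 is higher with either form of Ngn3 than in GFP only, while Cxcl10 runs from 0 to 152 CPM among the 18 pools of WT Ngn3, 2 of which are near copies of another, and Isg15 spreads within each 2-day group.

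The spread between pools of 1 biological replicate differed among the members. Over the 48 distinct pools of 2 days (6 pools nearly identical to another repeat were left out), the SD of log2(CPM + 1) within a replicate was taken. Its median was 0.68 over the 38 tested members and 0.38 over all tested genes. This SD depends on the level of a gene, and it was not compared with genes of the same level. The widest were Cxcl10 at 1.90, Ifit1 at 1.28, Ifi44 at 1.05, Gbp3 at 0.93 and Gbp7 at 0.91, and the narrowest was Ifi27 at 0.25. Ifi44 is a GTP-binding protein of the cytoplasm, and Gbp3 and Gbp7 belong to a family of guanylate-binding proteins whose members share sequence, so their reads are uncertain between copies. Cxcl10 ranged from 0.377 to 27.4 CPM in the 16 distinct pools of GFP only (median 1.73), from 0 to 145 CPM in the 16 with WT Ngn3 (median 10.5) and from 0 to 70.4 CPM in the 16 with 6S-A Ngn3 (median 6.45). Its highest distinct pool held 32.8%, 38.1% and 26.1% of the summed level of its group. Rsad2 had a within-replicate SD of 0.64, with a median pool of 49.2 CPM with WT Ngn3 and 54.7 CPM with 6S-A Ngn3, and no pool of either group was without a read. Usp18, the protease that removes Isg15 from its targets, reached 43.7 CPM in 1 pool of 6S-A Ngn3 that held 40.5% of the summed level over the distinct pools of its group.

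In some biological replicates, but not in all, the highest values of many members fell in 1 pool. In 4 of the 9 replicates of 2 days, 1 pool held the highest level of over 40% of the members with reads. In 1 pool of WT Ngn3 (replicate 1, repeat 6), 19 of 38 members had their highest level of the 6 pools of that replicate, while 15.9% of all tested genes did. Rsad2, Ifit1, Ifit3, Isg15, Usp18, Irf7 and Oasl2 were among them, and the summed level of the members in that pool was 1378 CPM, the highest of all pools of 2 days. In 1 pool of 6S-A Ngn3 (replicate 1, repeat 4), 17 of 38 members peaked, against 14.7% of all tested genes, and in 1 pool of GFP only (replicate 3, repeat 6), 20 of 37 members peaked, against 21.6%. These 3 pools held 3644608, 2238786 and 5632412 reads on genes, the second the fewest of its replicate and the last the highest of all GFP only pools. They came from all 3 groups of 2 days, and were picked as the most extreme pool of each group. The other pool over 40% (WT Ngn3, replicate 3, repeat 2) held the highest level of 16 of 38 members, against 20.4% of all tested genes. It had 1706065 reads, the fewest of the distinct pools of WT Ngn3. In replicate 2 of WT Ngn3 and in replicate 2 of 6S-A Ngn3, no pool held the highest level of more than 10 of 38 members, or 26.3%.

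Many members had their highest or lowest level of a group in the same biological replicate. With 6S-A Ngn3, replicate 2 held the highest level of 27 of 38 members, against 32.2% of all tested genes, and replicate 3 held the lowest level of 29, against 35.0%. Isg15 stood at 8.73 CPM in that replicate 2 and at 2.42 and 0.664 CPM in replicates 1 and 3. Usp18 stood at 11.6, 5.63 and 1.02 CPM in the same order, but 139 of its 224 reads in replicate 2 came from 1 pool, and without that pool the level was 5.34 CPM, no longer above replicate 1. Without replicate 3, Usp18 was called higher with 6S-A Ngn3 (1.96, edgeR, adjusted p = 0.0111), and the call was lost where that pool was also left out (1.31, adjusted p = 0.0698), an alternative chosen after seeing the data. In GFP only, replicate 2 held the lowest level of 25 of 38 members, against 29.1% of all tested genes. With WT Ngn3, replicate 1 held the highest level of 23 of 38 members, against 34.4%.

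At 8 days, Rsad2 was the single member past the threshold. It stood at 8.66, 21.9 and 12.9 CPM with WT Ngn3 and at 21.4, 16.5 and 1.54 CPM with 6S-A Ngn3. In the no-color groups it stood at 1.77, 5.36 and 0 CPM in WT organoids and at 0, 0.361 and 0 CPM in 6S-A organoids. Replicates of WT Ngn3 lay above all no-color replicates, and replicate 3 of 6S-A Ngn3 lay within their range. Single pools overlapped at this time. They ran from 1.30 to 23.0 CPM in the 4 pools with WT Ngn3 and from 0.909 to 35.9 CPM in the 6 with 6S-A Ngn3. In no-color cells of WT organoids 4 of 6 pools had 0 reads and the highest held 10.5 CPM, and in those of 6S-A organoids 5 of 6 had 0 reads and the highest held 0.876 CPM. Against both no-color groups together, the log2 fold change was 4.63 ± 0.97 with WT Ngn3 (edgeR, adjusted p = 0.0311) and 4.50 ± 0.96 with 6S-A Ngn3 (adjusted p = 0.02). So 1 of 37 members was called under each protein (median log2 fold change of the members 0.09 and -0.35, beside 0.009 and 0.035 over all genes, with 16 and 22 of 37 members below 0), against 0.914% and 1.71% of the 19696 genes tested, while 5 and 6 members had an unadjusted p under 0.05. Against its own no-color group, Rsad2 was not called with WT Ngn3 (2.48, adjusted p = 0.427) and was called with 6S-A Ngn3 (adjusted p = 0.0443). The call with WT Ngn3 was lost without any 1 replicate of WT Ngn3, and without replicate 1 or 3 of either no-color group (adjusted p between 0.0503 and 0.145). That with 6S-A Ngn3 was lost without replicate 1 or 2 of 6S-A Ngn3, replicate 1 or 3 of the no-color cells of 6S-A organoids, or replicate 1 of those of WT organoids (adjusted p between 0.0503 and 0.0843). In the fits that lost the call, the log2 fold change of Rsad2 was 4.225 to 4.865 with WT Ngn3 and 3.946 to 4.369 with 6S-A Ngn3. With the block, the log2 fold change was 5.38 ± 0.84 and 4.74 ± 0.83 (adjusted p = 0.00119 and 0.00186).

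Summed over the 39 members, the level at 8 days was 606 ± 95.0 CPM with WT Ngn3 and 582 ± 141 CPM with 6S-A Ngn3, beside 604 ± 29.9 and 570 ± 144 CPM in the no-color cells of WT and 6S-A organoids. The other members gave no call at 8 days without the block, in a fit that called 6% of 2-fold changes in simulated data. Zbp1 had a log2 fold change of 1.96 ± 0.76 under WT Ngn3 and 1.82 ± 0.75 under 6S-A Ngn3 (edgeR, adjusted p = 0.339 and 0.317). Irgm1 had 1.18 ± 0.48 and 1.08 ± 0.48 (adjusted p = 0.374 and 0.363). Ifit1 had 0 reads in all 6 pools of 6S-A Ngn3 and a read in 1 of 4 pools of WT Ngn3. In no-color cells it had a read in 5 of 6 pools of 6S-A organoids and in 4 of 6 pools of WT organoids. Cxcl10 stood at 5.14, 0 and 0 CPM with 6S-A Ngn3, at 68.0, 2.25 and 0.864 CPM in the no-color cells of 6S-A organoids and at 13.9, 2.41 and 2.89 CPM in those of WT organoids. Against both no-color groups, the block placed it past the threshold in 6S-A Ngn3 at -3.50 ± 0.90 (edgeR, adjusted p = 0.0357). A single pool of the no-color cells of 6S-A organoids gave 872 of the 1112 reads behind the 68.0 CPM. Without that pool the level was 24.5 CPM and the call was lost (-3.06 ± 0.97 with the block, adjusted p = 0.0936), an alternative also chosen after seeing the data.

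In the direct comparison of 6S-A with WT Ngn3 at 8 days, 0 of 37 members and 0.0% of all genes were called by edgeR, with 2 members at an unadjusted p under 0.05 and 0 called by DESeq2. The no-color cells of 6S-A and WT organoids did not differ past the threshold either, with 0 members and 0.0% of all genes called by edgeR, 3 members at an unadjusted p under 0.05 and 0 called by DESeq2. The lowest p among those belonged to Rsad2, which had 27, 49 and 0 reads in the no-color cells of WT organoids and 0, 4 and 0 reads in those of 6S-A organoids (log2 fold change -4.30 ± 1.34, adjusted p = 0.549).

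From 2 to 8 days most members had a log2 fold change below 0, in cells with Ngn3 and in the controls, but edgeR called none. The median log2 fold change of 37 members, 8 against 2 days, was -0.78 under WT Ngn3 and -1.01 under 6S-A Ngn3, against -0.04 and -0.02 over all 19589 genes tested at both times. Below 0 lay 29 and 34 of the 37 members, and 26 of 37 between the controls. With WT Ngn3, 0 members passed, 9 had an unadjusted p under 0.05 and 1 was called by DESeq2 (Gbp3), while 0.168% of all genes were called by edgeR and 1.52% by DESeq2. With 6S-A Ngn3, 0 passed, 17 had an unadjusted p under 0.05 and 8 were called lower by DESeq2, while 0.562% of all genes were called by edgeR and 4.1% by DESeq2. Rsad2 had a log2 fold change of -1.95 ± 0.75 under WT Ngn3 and -1.93 ± 0.74 under 6S-A Ngn3 (edgeR, adjusted p = 0.438 and 0.267). Between the controls, no-color cells of 8 days against GFP only of 2 days, 0 of 37 members and 1.35% of all genes were called, with 6 members at an unadjusted p under 0.05, 2 called by DESeq2 (6.42% of all genes) and a median of -0.23, beside -0.07 over all genes. The change of the response itself from 2 to 8 days was called for 0 members with WT Ngn3 (0.0% of all genes, 4 at an unadjusted p under 0.05, 0 by DESeq2) and for 0 with 6S-A Ngn3 (0.0102% of all genes, 8 at an unadjusted p under 0.05, 0 by DESeq2). For Rsad2 that change was -1.72 ± 1.21 and -1.70 ± 1.20. Depth, passage and the kind of control also differ between the times, so their part cannot be told apart from that of time.

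The genes around the pathway were read from lists of ligands, receptors and other components. The 10 interferon genes read, which hold part of the Ifna genes, had few reads or none. Of these, Ifnb1, Ifna1, Ifna2, Ifna4, Ifna5 and Ifnl3 had 0 reads in all 76 libraries, Ifng had 1 read and Ifnl2 had 3, and Ifnk and Ifne had 62 and 27 reads. The receptors were expressed in all groups. Of the 6 receptor genes, Ifnar1 and Il10rb rose at 2 days under both proteins, Ifnar1 by 0.88 ± 0.13 and 0.87 ± 0.13 on the log2 scale (edgeR, adjusted p = 0.000432 and 0.000307) and Il10rb by 0.45 ± 0.10 and 0.42 ± 0.10. Of 10 JAK-STAT genes, Tyk2 rose under both proteins (0.51 ± 0.13 and 0.46 ± 0.13), and with 6S-A Ngn3 Stat3 rose by 0.50 ± 0.12 and Cish, a feedback inhibitor of cytokine receptors, fell by 1.27 on the log2 scale.

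**Figure D4:**
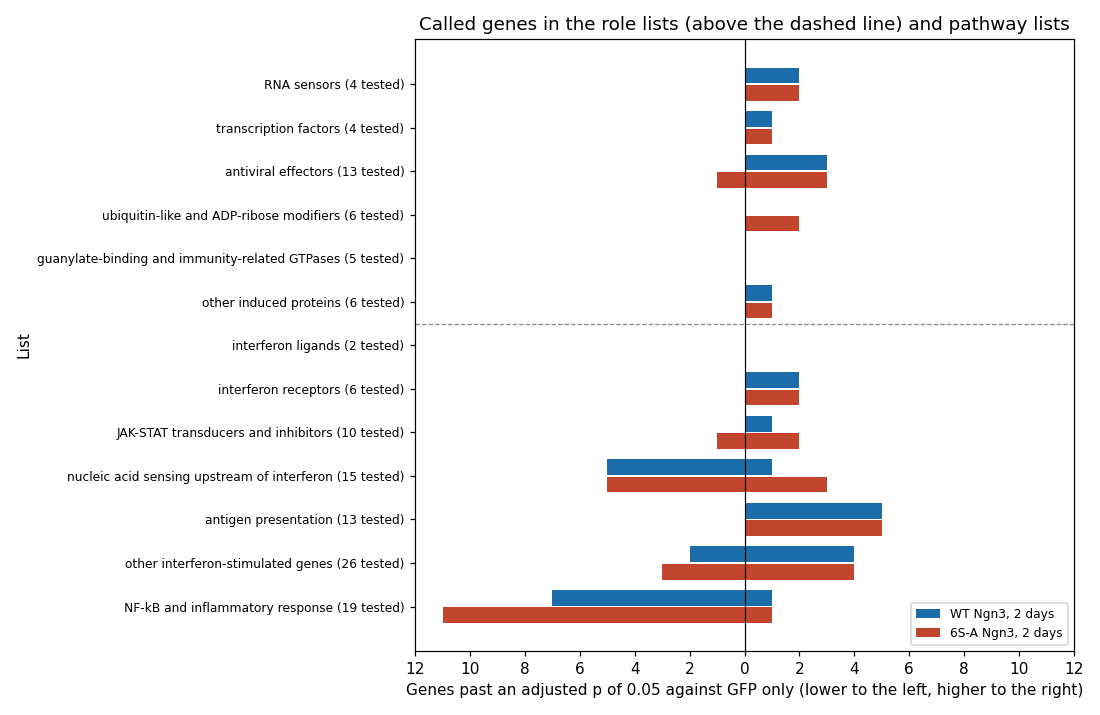
Number of genes past an adjusted p of 0.05 against GFP only at 2 days (horizontal axis, lower to the left and higher to the right) in the 6 role lists of the members, above the dashed line, and in 7 pathway lists, with WT Ngn3 in blue and 6S-A Ngn3 in red. Antigen presentation has 5 genes higher and none lower under each protein, and the NF-kB list has 7 and 11 genes lower.

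Of all genes tested at 2 days, 6.56% were called higher and 5.23% lower with WT Ngn3, and 9.43% and 8.62% with 6S-A Ngn3. In the list of nucleic acid sensing upstream of interferon, calls went in both directions. With WT Ngn3, 1 of 15 tested genes rose and 5 fell, and with 6S-A Ngn3, 3 rose and 5 fell. Tlr3, a receptor for double-stranded RNA in endosomes, had a log2 fold change of -1.32 ± 0.15 and -1.95 ± 0.16 (edgeR, adjusted p = 6.62e-05 and 1.6e-06). Tlr4, Mb21d1 (the DNA sensor cGAS), Ikbke and Myd88 also fell under both proteins, and the adaptor Traf3 rose. In antigen presentation, 5 of 13 tested genes rose and 0 fell under each protein, against the 6.56% and 9.43% of all genes called higher. These were the immunoproteasome subunits Psmb8, Psmb9 and Psmb10, the peptide transporter Tap2 and its partner Tapbp. Psmb9 had a log2 fold change of 1.79 ± 0.29 and 1.71 ± 0.29 (edgeR, adjusted p = 0.000927 and 0.000822), and Tap2 had 1.25 ± 0.24 and 1.55 ± 0.24 (adjusted p = 0.00292 and 0.000359).

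Among 26 tested interferon-stimulated genes outside the 39, 4 rose under each protein, and 2 fell under WT Ngn3 and 3 under 6S-A Ngn3. In either direction these are 6 and 7 genes of 26, beside 11.8% and 18.1% of all genes. Cmpk2, the neighbor of Rsad2 in the genome, rose by 2.97 ± 0.68 and 2.83 ± 0.68 (edgeR, adjusted p = 0.0153 and 0.013). Ifitm1, a membrane protein that hinders virus entry, rose from 0.0918 CPM in GFP only to 1.40 and 2.71 CPM, and Tgtp1 and Lgals3bp rose as well. Lgals9 and Slfn2 fell under both proteins, Lgals9 by 1.48 and by 1.95 on the log2 scale. Lgals9 was also lower at 8 days (-2.02 ± 0.41 and -2.05 ± 0.41, adjusted p = 0.0273 and 0.0137). In the NF-kB and inflammatory list, 1 gene, the chemokine Ccl2, rose under each protein, and 7 of 19 tested genes fell under WT Ngn3 and 11 under 6S-A Ngn3, beside 5.23% and 8.62% of all genes called lower. Among those were the chemokines Cxcl1, Cxcl2 and Cxcl5 and the NF-kB targets Lcn2, Tnfaip3 and Nfkbia.

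Ductal markers were present in all groups, with a summed level of 12 genes between 10130 and 41270 CPM per replicate, and 6 of the 12 fell at 2 days under each protein. Of 12 leukocyte markers, Cd3e and Tyrobp had 0 reads, Ptprc had 47 reads, Lyz2 had 5 and Adgre1 had 3 in all 76 libraries. Cd14, which made up most of the summed level of that list, was at 509 CPM in GFP only and lower with Ngn3, at 127 and 87.7 CPM. The summed level of the list was between 509 and 527 CPM per replicate in GFP only, 124 to 152 CPM with WT Ngn3 and 76.2 to 108 CPM with 6S-A Ngn3, opposite in direction to the members that rose. At 8 days it was 172 to 295 CPM with WT Ngn3 and 130 to 298 CPM with 6S-A Ngn3, beside 485 to 1582 CPM and 1050 to 1251 CPM in the no-color cells of WT and 6S-A organoids, and Cd14 was called lower under both proteins (edgeR, adjusted p = 0.00869 and 0.00378). Rsad2 moved in the opposite direction there too. The part of this list in the results was not tested. The 5 endothelial markers were low but moved in the direction of the members that rose, with a sum between 0.875 and 1.49 CPM per replicate in GFP only, 1.62 to 5.85 CPM with WT Ngn3 and 2.66 to 10.2 CPM with 6S-A Ngn3. One of them, Pecam1, was called higher with 6S-A Ngn3 (edgeR, adjusted p = 0.0197). At 8 days the sum was at most 1.29 CPM with WT Ngn3, 3.86 CPM with 6S-A Ngn3 and 0.393 CPM in no-color cells. Pecam1 had 0 reads in the no-color cells and a mean of 0.771 and 1.42 CPM with WT and 6S-A Ngn3, without a call (adjusted p = 0.193 and 0.09), and the part of these cells in the results was not tested. The 7 fibroblast markers summed to at most 2.60 CPM in any replicate and the 8 acinar markers to at most 18.5 CPM.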

How the data were processed

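RNA was measured from pools of 50 cells by Smart-seq2. The authors aligned reads to mm10 with GSNAP and deposited counts of reads per gene from HTSeq 0.5.3p3, not normalized. Of all reads, 22.5% were unaligned, 14.4% hit no feature and 8.06% were ambiguous, and these stayed out of library sizes. The limits of the study's methods (under 30% spike-in reads, over 1000000 gene reads, over 10000 genes) were recomputed and kept 76 of 77 libraries, which held 1501002 to 9202142 reads on genes. The study's methods name more libraries as left out than the 1 found here, and which they were is not given in the sources used here. In 6 pairs, technical repeats were near-identical. Both stayed in the sums, and 1 of each pair was left out of values over distinct pools. Technical repeats were summed per biological replicate (n = 3 per group, 17757303 to 26627347 reads at 2 days and 2397470 to 17919627 at 8 days). Whether the replicates were separate animals is not given in the sources used here, so p-values measure the spread between these samples. Genes with at least 1 read in at least 5 libraries of a time were tested with edgeR 4.0.16 (TMM, quasi-likelihood, Benjamini-Hochberg over all tested genes, threshold 0.05) in R 4.3.3. At 8 days the reference was the mean of both no-color groups, and a joint fit compared the times. Same-numbered replicates deviated together within a day (r between 0.145 and 0.559 at 2 days over 9 pairs, and between 0.117 and 0.674 at 8 days over 18 pairs), so the numbers were taken to pair samples, and a fit with the number as a block stands beside results it changed. Alternatives used DESeq2 1.42.0, scran 1.30.0, other filters, other libraries and left-out replicates. The scripts were tested on simulated data, where the 2-day fit called 74% of 2-fold and 97% of 4-fold changes. The 8-day fit called 6% and 67%, so a missing call at 8 days does not show that a change was absent. Of the calls made, 9.04% at 2 days and 9.88% at 8 days were false, beside the threshold of 0.05. The members and lists were chosen with earlier results of these data known. Genes named are members past the threshold (the 8 with the largest change per comparison), the highest of each role per length, the 5 with the widest spread between pools, Neurog3, markers, and up to 5 called genes of each pathway list per comparison. Irgm1, Isg15, Ifit1, Usp18 and genes called with the block alone were named after their values were seen. Other members, among them Parp9, Ddx58, Stat2, Irf9, Irf7 and Mx2, were also named outside this rule. The result of 1 gene of the pathway lists is not reported here.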

Additional observations from a re-analysis of the deposited data

Results flagged for a closer look

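In 34 of 203 sets of pools, over 16 genes, 1 pool stood apart from the others of its set by Dixon's criterion. The usual chance rate of about 1 set in 20 does not apply here, because 5 of the genes were taken for their wide spread between pools and because in 9 of the 34 sets all other pools were at 0, where a few reads set the outcome. A set was the distinct pools of 1 biological replicate at 2 days and the pools of a group at 8 days, and in all 34 the pool that stood apart was the highest.

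At 2 days in GFP only, these were replicate 1 for Rsad2 at 3.33 CPM, Ifit3 at 0.794 CPM, Oasl1 at 11.7 CPM, Cxcl10 at 26.6 CPM and Gbp7 at 5.47 CPM. Replicate 2 gave Rsad2 at 1.03 CPM, and replicate 3 gave Zbp1 at 3.57 CPM, Cxcl10 at 27.4 CPM and Gbp7 at 7.49 CPM. A single pool of replicate 1 gave the values of Rsad2, Oasl1, Cxcl10 and Gbp7. With WT Ngn3, replicate 1 gave Ifit3 at 4.53 CPM, Oasl1 at 4.64 CPM and Cxcl10 at 66.2 CPM, replicate 2 gave Oas2 at 2.51 CPM and Oasl1 at 1.87 CPM, and replicate 3 gave Ifit1 at 15.8 CPM. With 6S-A Ngn3, 1 pool of replicate 1 gave both Ifit1 at 7.78 CPM and Ifi44 at 28.1 CPM, and replicate 3 gave Rsad2 at 78.7 CPM and Oasl1 at 0.170 CPM.

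At 8 days with WT Ngn3, the values were 1.11 CPM for Ifit3, 1.67 CPM for Oasl1 and 0.371 CPM for Ifit1. With 6S-A Ngn3 they were 63.3 CPM for Ifih1, 12.1 CPM for Cxcl10 and 1.79 CPM for Ifi44. In the no-color cells of WT organoids they were 3.27 CPM for Ifit3, 1.60 CPM for Oas2, 28.1 CPM for Oasl1, 32.8 CPM for Dtx3l, 18.3 CPM for Xaf1 and 6.23 CPM for Gbp7, and those of Oasl1 and Xaf1 came from the replicate with 2397470 reads. In those of 6S-A organoids they were 0.876 CPM for Rsad2, 0.827 CPM for Oas2 and 3.51 CPM for Gbp3.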

How the results depend on the processing

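Rsad2, Zbp1 and Ifih1 were called higher at 2 days under both proteins in 17 of 17 alternatives, and Irf1 in 16 of 17, lost where only the first technical repeat was used. No called value changed sign. The count of members called with WT Ngn3 at 2 days (7) was 11 with DESeq2 (17.4% of all genes in the same fit), 4 with the first technical repeat only (3.87%) and 4 to 10 with 1 replicate left out (8.25% to 11.8%). That with 6S-A Ngn3 (10) was 5 with the first repeat only (6.39%) and 8 to 13 with 1 replicate left out (13.8% to 18.9%), where Trim25, Rtp4 and Ifi27 were among those gained. Normalization with scran, or use of all 77 libraries, gave 7 and 10. With near-identical repeats counted once they were 6 (without Oas2, 12.2% of all genes) and 12 (with Cxcl10 and Trim25, 18.7%). For 6S-A against WT Ngn3 the count was 0 at both times in each alternative run.

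With the replicate number as a block, to use the pairing, the counts were 10 and 15 at 2 days (18.0% and 24.8% of all genes), and at 8 days 1 under WT and 2 under 6S-A Ngn3 (2.4% and 3.57%). At 8 days the count with WT Ngn3 (1) was 0 with the first repeat only, 0 against its own no-color group, 0 against it with the block and 0 to 1 with 1 replicate left out. That with 6S-A Ngn3 (1) was 2 with DESeq2 (5.1% of all genes), 3 with no filter on low counts (3.86%), 0 with the first repeat only, 2 with the block against its own no-color group and 0 to 1 with 1 replicate left out. Between no-color groups (0), no filter gave 1.

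From 2 to 8 days, the count with WT Ngn3 (0) was 1 with DESeq2 (1.52% of all genes) and 5 with no filter (1.13%). That with 6S-A Ngn3 (0) was 8 with DESeq2 (4.1%), 10 with no filter (1.93%), 2 with the block (1.24%) and 0 to 1 with 1 replicate left out. Numbers did not pair samples across days (r between -0.304 and 0.216 over 36 pairs). Between the controls (0) it was 2 with DESeq2 (6.42%), 2 with no filter (2.63%) and 0 to 1 with 1 replicate left out. For the change of the response (0), no filter gave 1 with WT and 2 with 6S-A Ngn3. The causes were not tested. Members below 1 CPM, such as Ifit3, rest on few reads per replicate. The shallowest replicate held 2397470 reads.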
